A study of Homo sapiens with 10 samples.

Results

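Every cytoplasmic ribosome is built from ribosomal RNA and a fixed set of ribosomal proteins, each encoded by its own gene, and the 75 of these genes present in the deposited tables are described here. They were chosen by symbol alone, as RPL or RPS followed by a number with an optional A or X, together with *RPLP0*, *RPLP1*, *RPLP2* and *RPSA*, and no expression value entered the choice. Of the 75, 46 encode proteins of the large subunit and 29 encode proteins of the small subunit, out of 19695 gene symbols in all. RefSeq lists 77 protein-coding symbols that follow the rule, 2 of which were not analysed here. Of the 75, 74 passed the filter on low counts in every comparison. *RPS9* did not, with 18 reads over all 6 libraries.

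Ribosomal protein genes are housekeeping genes that are transcribed at a high rate in growing cells, and their products are needed in nearly equal numbers because each protein occupies its own place in the particle. Their mRNAs are known for a 5′ terminal oligopyrimidine tract, a C at the first transcribed base followed by a run of C and T, through which growth signals control their translation. Several of the proteins also act outside the ribosome, and many of the genes carry small nucleolar RNAs in their introns.

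The cells were T47D, a luminal breast cancer line. They were transfected for 72 h with control siRNA, siRNA against *TRPS1* or siRNA against *CHD4*, with 2 RNA-seq libraries for each of these 3 groups and no other allele or agent. TRPS1 is an atypical GATA factor that acts as a repressor, CHD4 is the ATPase of the NuRD chromatin remodelling complex, and the study asked which genes TRPS1 represses and whether CHD4 is required for it. The labels give siRNA for both knockdowns, whereas the description of the RNA-seq in the study's methods speaks of shRNA for *CHD4*. TRPS1 chromatin immunoprecipitation with input DNA was sequenced from the same line and is used here as the 1 deposited list of 1844 peaks. Nothing in the labels says that the 2 libraries of a group came from separate cultures, so p-values measure only the spread between these libraries.

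Total gene counts ranged from 10333138 to 14668358 per library. Levels below are TMM-normalised counts per 1e+06 counts of the library (TMM CPM), in which each library's total is rescaled so that most genes keep their level. *TRPS1* stood at 1418 and 2323 TMM CPM in the control libraries, at 1149 and 727 upon silencing *TRPS1*, and at 2462 and 1583 upon silencing *CHD4*. *CHD4* stood at 96.2 and 54.2 in its own knockdown, against 271 to 298 in the other 4 libraries. Luminal markers were present in every library (*ESR1* 187 to 406 TMM CPM), while *KRT5*, *KRT14*, *PTPRC*, *PECAM1* and *COL1A2* were at 0.43 or less and *COL1A1* was at 59.0 to 153. The first control library stood apart: *ACTB* was at 7922 TMM CPM there and at 2547 to 3168 in the other 5 libraries, and the nuclear RNAs *MALAT1* and *NEAT1* took 2.39% of its counts against 5.46% to 8.09%. It was the highest or the lowest of the 6 libraries in 69.8% of the 12921 genes tested upon silencing *TRPS1*. For most of the larger changes against control, the value without this library is therefore given too.

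The start sites of the genes show what the group shares in sequence. RefSeq promoter windows (build GRCh38.p14, 250 bases before to 50 bases after each start site) were found for 61 of the 75 genes. A C at the start site followed directly by at least 4 more C or T was present in 41 of the 61 (67.2%), against 4.04% of all 27305 promoters in the table and 5.26% of the 9671 promoters of genes tested. With the C allowed anywhere within 10 bases of the start site, the counts were 54 of 61 (88.5%) and 33.3% of all promoters. The windows below run from 10 bases before the start site and hold 30 bases, with the pyrimidine tract in capitals where it begins at the start site. They are shown for some of the genes with large changes described below, for *RPL35*, which has a TRPS1 peak close by, and for *RPLP0*, which had the most counts.

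RPS27: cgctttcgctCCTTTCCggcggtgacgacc
RPS24: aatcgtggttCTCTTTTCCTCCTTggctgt
RPL24: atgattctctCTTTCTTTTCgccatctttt
RPL28: cctcgccttcCTCTTTCCgtctcaggtcgc
RPL35: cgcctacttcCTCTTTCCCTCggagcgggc
RPLP0: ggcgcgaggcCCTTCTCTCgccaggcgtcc
RPL11: cctggcccataaggccctcggccggaagct
RPS28: gaagcacgtgactcctctccgccagaccgc
RPS27A: agtgacacacaagacccagactcttcccta

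The first 6 begin with the tract, whereas *RPL11*, *RPS28* and *RPS27A* do not begin with it at the start site listed in the table. These windows lie at chr1:153990752-153990781 (*RPS27*, plus strand), chr10:78033853-78033882 (*RPS24*, plus), chr3:101686699-101686728 (*RPL24*, minus), chr19:55385922-55385951 (*RPL28*, plus), chr9:124861938-124861967 (*RPL35*, minus), chr12:120201092-120201121 (*RPLP0*, minus), chr1:23691769-23691798 (*RPL11*, plus), chr19:8321486-8321515 (*RPS28*, plus) and chr2:55231893-55231922 (*RPS27A*, plus). The table lists 1 start site for each gene, and the site used in T47D was not measured here. No promoter entry was matched for 14 genes, *RPS15A*, *RPL37* and *RPL5* among them. The 75 genes lie on 21 chromosomes, with 12 of them on chromosome 19, and 29 hold at least 1 small nucleolar RNA gene within their span.

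Together the 75 genes took 4.19% and 3.58% of all gene counts in the control libraries, 4.65% and 3.76% upon silencing *TRPS1*, and 4.34% and 3.62% upon silencing *CHD4*. The first replicate was above the second in each of the 3 groups, and all 3 groups overlapped. The means were 3.88% ± 0.431 (SD, n = 2) for control siRNA, 4.21% ± 0.632 (SD, n = 2) for *TRPS1* siRNA and 3.98% ± 0.510 (SD, n = 2) for *CHD4* siRNA. The share was higher by 0.327 percentage points upon silencing *TRPS1* (exact two-sided permutation p = 0.667) and by 0.0982 upon silencing *CHD4* (exact permutation p = 0.667), where 2 libraries against 2 cannot give a p below 1 in 3. When TMM CPM were summed in place of raw shares, both differences turned to the other side, to -0.0534 and -0.259 percentage points. Counting error was small beside this spread, with a 95% Wilson interval of 4.175% to 4.195% for the first control library.

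**Figure D1:**
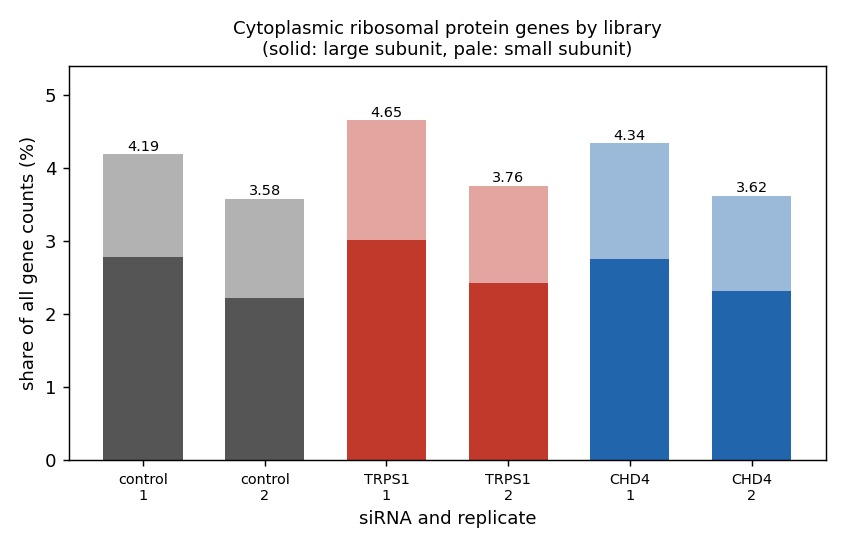
Share of all gene counts (%) taken by the 75 cytoplasmic ribosomal protein genes in each of the 6 libraries, with large subunit genes as the solid part and small subunit genes as the pale part of each bar. The totals run from 3.58% to 4.65%, and the first library of each group is the higher one.

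Large subunit genes took 2.22% to 3.02% of the counts and small subunit genes 1.30% to 1.64%. The ratio of large to small subunit counts was 1.98 and 1.63 in the control libraries, 1.84 and 1.83 upon silencing *TRPS1*, and 1.73 and 1.78 upon silencing *CHD4*, so that the control libraries were the highest and the lowest of the 6. Reads were concentrated in a few genes: the 5 with the most reads in a library gave 24.9% to 27.8% of its ribosomal protein counts. *RPLP0*, the base of the stalk that recruits elongation factors, had the most reads over the 6 libraries (213424), followed by *RPL7A* (204196) and *RPS3* (153321). The fewest were found for *RPS9* (18), *RPL36* (2249) and *RPL36A* (2387). Read counts were not scaled to transcript length, so they do not rank the genes by their number of mRNAs.

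The first control library lay apart from the second control library as well as from the knockdowns. Across the 74 genes, log2 levels of the first control library correlated with those of the other 5 libraries at r = 0.793 to 0.818, whereas the other 10 pairs of libraries gave r = 0.947 to 0.992 (Pearson correlation across 74 genes, which share library and depth and are not independent replicates). Compared with the second control library, 14 genes were over 2-fold higher in the first and 12 were over 2-fold lower, while 13.6% and 19.2% of all genes tested were. The first control library was the highest of the 6 for 29 of the 74 genes and the lowest for 20. The first *TRPS1* siRNA library was the highest for 23 genes, the first *CHD4* siRNA library for 20, and the second library of either knockdown for 0. Over all genes tested these libraries were the highest for 12.4%, 14.5%, 10.9% (*TRPS1*) and 8.55% (*CHD4*), and the first control library for 33.2%. The first control library was the lowest for 36.6% of all genes. The second control library was the highest for 2 of the 74 genes and the lowest for 20, beside 20.5% and 15.3% of all genes.

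**Figure D2:**
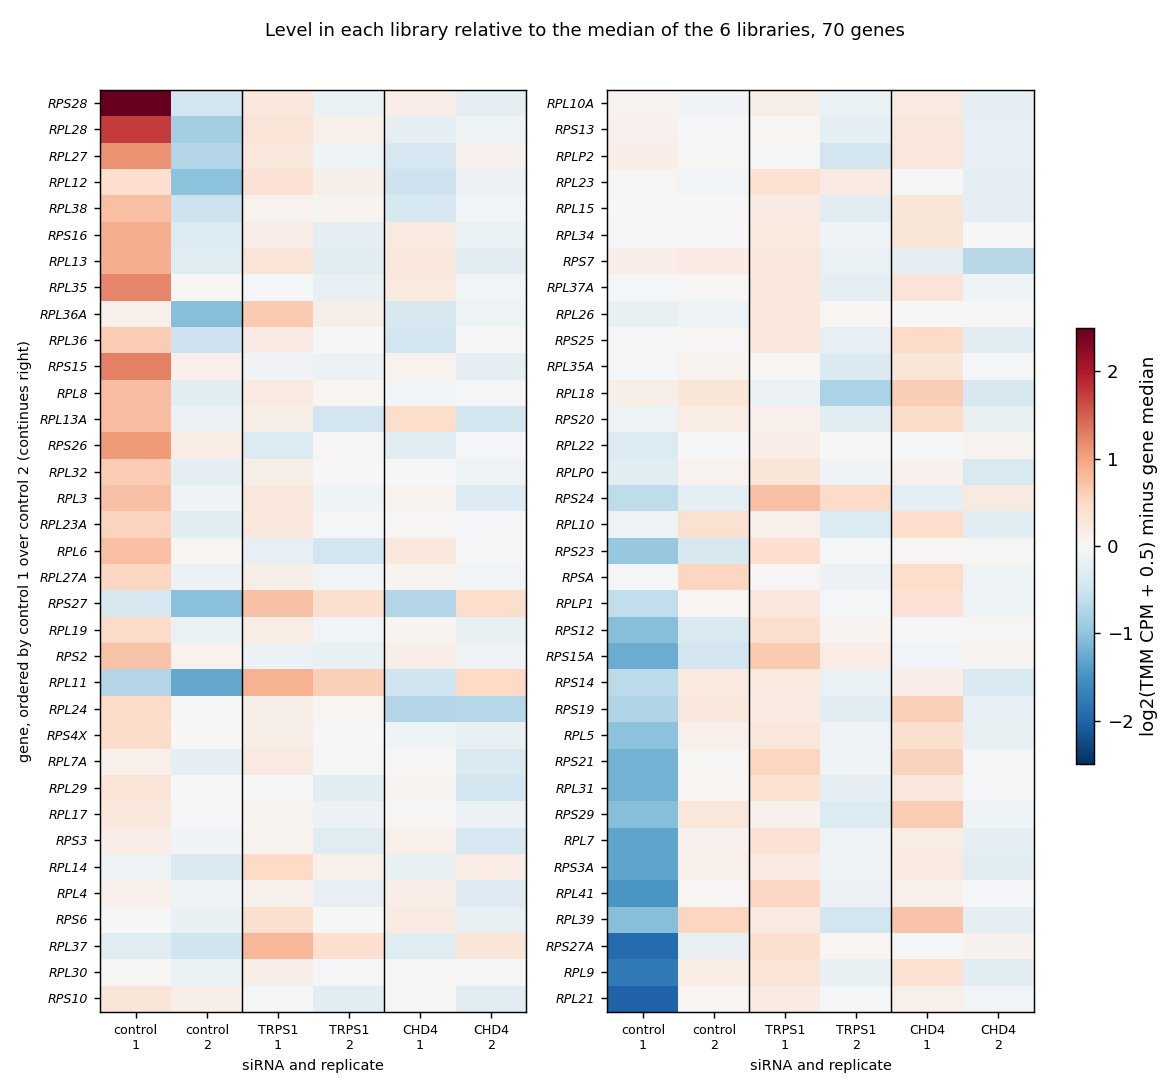
Level of 70 of the 74 tested ribosomal protein genes in each library, as log2(TMM CPM + 0.5) minus the gene's median over the 6 libraries, with genes ordered by the ratio of the first to the second control library. The first control column runs from strong red at *RPS28* to strong blue at *RPL21*, while the other 5 columns are paler, and *RPL11*, *RPS27*, *RPL37* and *RPS24* are red in both *TRPS1* siRNA columns.

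*RPS28*, a small subunit protein that sits where mRNA leaves the ribosome, was the extreme case. It stood at 978 TMM CPM in the first control library and at 73.5 in the second, at 124 and 91.5 upon silencing *TRPS1*, and at 114 and 86.6 upon silencing *CHD4*. A single library was high, and the second control was the lowest of all. *RPS28* made up 2.22% of the ribosomal protein reads in the first control library and 0.191% to 0.273% in the other 5. *RPL28*, of the large subunit, was likewise highest in the first control library and lowest in the second, with 789 and 129 TMM CPM in the controls, 293 and 256 upon silencing *TRPS1*, and 201 and 215 upon silencing *CHD4*. On the other side stood *RPL21*, *RPL9* and *RPS27A*, the last of which encodes ubiquitin fused to a small subunit protein. *RPL21* was at 82.6 TMM CPM in the first control library against 320 to 387 in the other 5, *RPL9* at 99.6 against 287 to 444, and *RPS27A* at 50.6 against 170 to 255. In contrast, *RPL30*, *RPL34* and *RPL17* varied least, with the highest library 1.24, 1.31 and 1.34 times the lowest.

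Many of these genes have processed pseudogenes elsewhere in the genome: RefSeq lists 1936 pseudogene symbols for the 75, from 4 for *RPS9* and 5 for *RPL11* to 137 for *RPL21*. Reads that match a gene and its copies can be split or lost in counting, so the levels of genes such as *RPL21* are uncertain in that respect. In the tables themselves, 26 such pseudogene symbols were present and took 0.0100% to 0.0249% of the counts.

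Upon silencing *TRPS1*, 5 of the 74 genes passed the cutoffs of the study on the higher side: *RPL11*, *RPS27*, *RPS15A*, *RPS24* and *RPL37*. These cutoffs ask for a change of more than 2-fold with an unadjusted p below 0.05, here by edgeR's quasi-likelihood test. The 5 genes were 6.76% of the 74, while 2.7% of all 12921 genes tested were called higher, and 0 of the 74 were called lower against 3.17% of all genes. None was called at an adjusted p under 0.05, and neither was any other gene (0%). At an unadjusted p under 0.05 alone there were 7 ribosomal protein genes and 902 genes in all. By edgeR's likelihood ratio test and by DESeq2, 34 and 39 genes passed an adjusted p under 0.05, and *RPL11* was the 1 ribosomal protein gene in each. The median log2 fold change was -0.06 over the 74 genes and -0.02 over all genes tested. It was -0.02 for the large and -0.08 for the small subunit genes, and the median of all 74 became 0.13 without the first control library. With libraries scaled by their totals alone, the median was 0.07 for the 74 genes and 0.10 for all genes tested.

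*RPL11*, which joins the large subunit with *RPL5* and the 5S RNA and also binds the p53 regulator MDM2, showed the largest increase. Its level was 114 and 78.6 TMM CPM in the control libraries, 347 and 287 upon silencing *TRPS1*, and 134 and 269 upon silencing *CHD4*. All 4 knockdown libraries were above both controls, with the first *CHD4* siRNA library closest to them. The log2 fold change upon silencing *TRPS1* was 1.73 (SE 0.37, unadjusted p = 0.00279, adjusted p = 0.659 by edgeR's quasi-likelihood test). It was 2.06 without the first control library and 1.46 without the second, in fits that each leave 1 control library with no replicate. *RPL11* was the only 1 of the 74 genes whose mean in the *TRPS1* siRNA libraries was over 2-fold above each control library taken alone. That count was not made over all genes. *RPL11* (GeneID 6135) lies on chromosome 1 at 23691779 to 23696835 in the RefSeq table.

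For the other 4 genes too, neither *TRPS1* siRNA library fell within the range of the controls, and both were above it. *RPS27*, a zinc-binding protein of the small subunit, was at 37.5 and 23.9 TMM CPM in the controls, at 82.8 and 66.2 upon silencing *TRPS1*, and at 29.7 and 68.1 upon silencing *CHD4*. *RPS24*, a small subunit protein mutated in some patients with Diamond-Blackfan anaemia, was at 152 and 199 TMM CPM in the controls, at 391 and 327 upon silencing *TRPS1*, and at 201 and 277 upon silencing *CHD4*. *RPL37*, of the large subunit, was at 62.9 and 55.1, at 137 and 104, and at 62.6 and 95.4 TMM CPM in the same order. As for *RPL11*, the 2 *TRPS1* siRNA libraries and the second *CHD4* siRNA library were the 3 highest for all 3 genes. *RPS15A*, of the small subunit, stood at 256 and 433 TMM CPM in the controls, at 954 and 692 upon silencing *TRPS1*, and at 580 and 636 upon silencing *CHD4*, with all 4 knockdown libraries above both controls. The log2 fold changes upon silencing *TRPS1* were 1.28 (SE 0.40) for *RPS27*, 1.28 (SE 0.39) for *RPS15A*, 1.05 (SE 0.33) for *RPS24* and 1.04 (SE 0.35) for *RPL37*, with unadjusted p from 0.0145 to 0.0225 and an adjusted p of 0.659 for each (edgeR quasi-likelihood test). Without the first control library, *RPS15A* and *RPS24* were under the 2-fold limit at 0.97 and 0.90, and without the second *RPS27* and *RPL37* were under it at 0.97 and 0.92, so that *RPL11* was the 1 of the 5 called in both of these fits. When 1 *TRPS1* siRNA library was left out, the call held for *RPL11* alone without the first and for *RPL11* and *RPS15A* without the second.

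**Figure D3:**
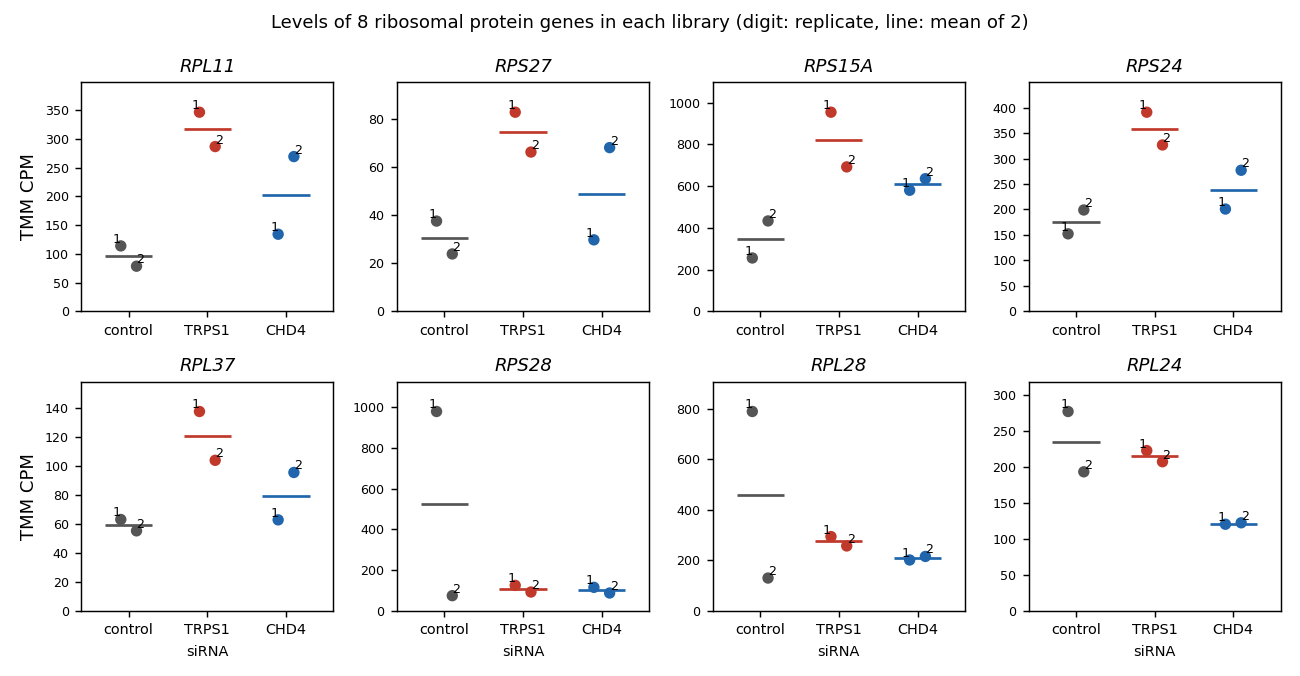
TMM CPM of 8 ribosomal protein genes in each library, grouped by siRNA, with the digit giving the replicate and the line the mean of 2 libraries. *RPL11*, *RPS27*, *RPS15A*, *RPS24* and *RPL37* have both *TRPS1* siRNA points above both controls, *RPS28* and *RPL28* have 1 high control point, and *RPL24* has both *CHD4* siRNA points lowest.

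Among the remaining genes with large differences, *RPS28* had a log2 fold change of -2.30 (SE 1.05, edgeR unadjusted p = 0.0684), which became 0.60 without the first control library. *RPS27A* gave 1.07 (SE 0.57), *RPS12* 0.94 (SE 0.37), *RPS23* of the decoding centre 0.88 (SE 0.36) and *RPS15* -0.92 (SE 0.45). Without the first control library these 4 stood at 0.46, 0.65, 0.66 and -0.21, and without the second at 2.15, 1.30, 1.14 and -1.39. *RPS12* was at 111 and 181 TMM CPM in the controls and at 307 and 245 upon silencing *TRPS1*, and *RPS23* at 127 and 185 against 325 and 240, without overlap in either. *RPS15* was at 370 and 170 in the controls and at 146 and 139 upon silencing *TRPS1*. In all, 13 genes had both *TRPS1* siRNA libraries above both controls and 9 had both below, beside 21.5% and 22.5% of all genes tested.

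The direction of a change often depended on which control library was used. The mean of the *TRPS1* siRNA libraries was over 2-fold higher than the first control library for 14 of the 74 genes and over 2-fold lower for 9 (18.7% and 13.8% of all genes tested). Against the second control library, 6 were over 2-fold higher and 0 lower (4.27% and 3.14% of all genes). The 14 were *RPL11*, *RPL21*, *RPL31*, *RPL41*, *RPL5*, *RPL7*, *RPL9*, *RPS12*, *RPS15A*, *RPS21*, *RPS23*, *RPS24*, *RPS27A* and *RPS3A*, whereas the 6 were *RPL11*, *RPL12*, *RPL28*, *RPL36A*, *RPL37* and *RPS27*. For 25 genes the mean was above both controls, for 16 it was below both, and for 33 it lay between them. These counts against both controls were not made over all genes, so they describe the 74 genes only. Each ratio to a single control rests on 1 control library and has no replicate check.

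**Figure D4:**
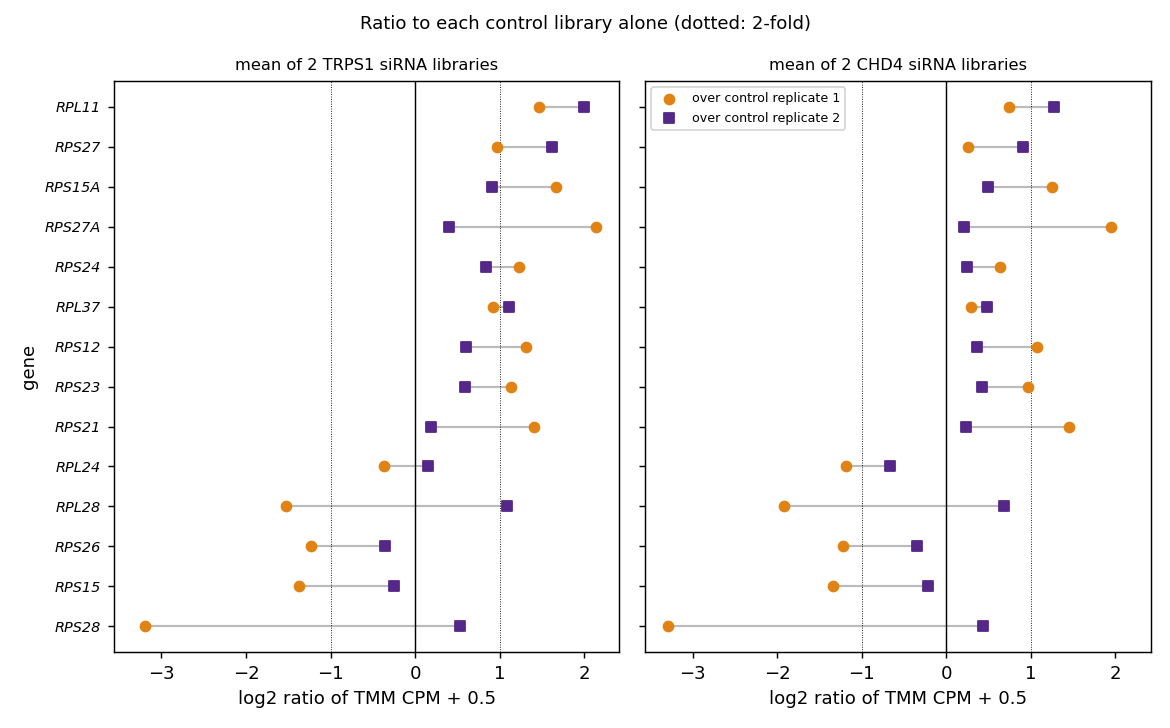
Log2 ratio of the mean of the 2 *TRPS1* siRNA libraries (left) and of the 2 *CHD4* siRNA libraries (right) to each control library alone, on TMM CPM + 0.5, for 14 ribosomal protein genes with large fitted changes against control. *RPL11* is past 2-fold against both controls on the left, while *RPS28* and *RPL28* lie on opposite sides of 0 depending on the control.

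Upon silencing *CHD4*, 0 of the 74 genes were called higher (2.6% of all 12918 genes tested were) and 1 was called lower (2.85% of all genes). The 1 gene was *RPS28*, with a log2 fold change of -2.40 (SE 0.99, edgeR unadjusted p = 0.0441), which became 0.50 without the first control library. No gene passed an adjusted p under 0.05 in this comparison (0%), and 2 ribosomal protein genes, *RPS28* and *RPL24*, were among the 769 genes at an unadjusted p under 0.05. By edgeR's likelihood ratio test and by DESeq2, 58 and 50 genes passed, with 0 of the 74 among them. The median log2 fold change was -0.02, both for the 74 genes and for all genes tested, and with libraries scaled by their totals alone it was 0.10 and 0.11. Libraries did not overlap for 9 genes that were higher and 6 that were lower, beside 18.8% and 20.7% of all genes.

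*RPL24*, a large subunit protein that joins late and bridges the subunits, was lowest in the *CHD4* siRNA libraries. It stood at 277 and 193 TMM CPM in the controls, at 223 and 207 upon silencing *TRPS1*, and at 120 and 122 upon silencing *CHD4*. The pair of *CHD4* siRNA libraries lay below the other 4 and close to each other. Its log2 fold change was -0.95 against control (SE 0.38, edgeR unadjusted p = 0.0378, adjusted p = 0.792), under the 2-fold limit, and it was -0.62 without the first control library and -1.21 without the second. *RPL11* gave 1.07 (SE 0.46, edgeR unadjusted p = 0.0515), and *RPS15A* gave 0.84 (SE 0.38). Without the first control library they were 1.41 and 0.54, and without the second 0.81 and 1.23. *RPL28* gave -1.16 (SE 0.74), which turned to 0.74 without the first control library. *RPS15* and *RPS26*, a protein at the mRNA exit, gave -0.88 (SE 0.47) and -0.84 (SE 0.43), and *RPS27A* and *RPS21* gave 0.86 (SE 0.55) and 0.77 (SE 0.48). Without the first control library *RPS15*, *RPS26*, *RPS27A* and *RPS21* stood at -0.16, -0.29, 0.26 and 0.32. *RPS26* was at 219 and 119 TMM CPM in the controls and at 86.1 and 103 upon silencing *CHD4*.

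Against the first control library alone, 13 genes were over 2-fold higher in the *CHD4* siRNA mean and 9 over 2-fold lower (17.7% and 13.1% of all genes tested). Against the second control library alone, *RPL11* was over 2-fold higher and 0 genes were lower (4.91% and 3.26% of all genes). None of the 74 genes was over 2-fold from both controls in the same direction. The mean lay between the controls for 39 genes, above both for 20 and below both for 15. Here too, counts against both controls were not made over all genes, so they describe the 74 genes only.

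Both knockdowns were compared with the same 2 control libraries, so the *TRPS1* and *CHD4* results are not independent of each other. The direct comparison of *CHD4* siRNA with *TRPS1* siRNA libraries does not use the controls. In it, 0 of the 74 genes were called higher (2.12% of all 13143 genes tested) and 0 lower (1.56%). No gene passed an adjusted p under 0.05 (0%), while 6 ribosomal protein genes were at an unadjusted p under 0.05 among 2023 genes in all. By edgeR's likelihood ratio test and by DESeq2, 570 and 456 genes passed, and *RPL24* was the 1 ribosomal protein gene in each. The 6 at an unadjusted p under 0.05 were each lower in the *CHD4* siRNA libraries, and *RPL24*, *RPL12*, *RPL28*, *RPL36A* and *RPS24* were among them. *RPL24* had a log2 difference of -0.83 (SE 0.14, edgeR unadjusted p = 0.00109, adjusted p = 0.101). *RPL36A* was at 24.3 and 29.4 TMM CPM upon silencing *CHD4* and at 50.8 and 35.5 upon silencing *TRPS1*, a log2 difference of -0.68 (SE 0.23). *RPL12*, at the base of the stalk, was at 428 and 554 against 786 and 679, a log2 difference of -0.58 (SE 0.20).

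*RPL11* (-0.65, SE 0.33), *RPS27* (-0.61, SE 0.38) and *RPL37* (-0.61, SE 0.25) were also among the 10 largest log2 differences in this direction, as were *RPS24* (-0.59, SE 0.21), *RPS7* (-0.53, SE 0.24) and *RPS15A* (-0.44, SE 0.21). *RPL18* was the largest on the other side, with 0.63 (SE 0.38). It was at 662 and 327 TMM CPM upon silencing *CHD4* and at 389 and 248 upon silencing *TRPS1*, and the groups overlapped. Libraries did not overlap for 17 genes lower upon silencing *CHD4* and for 2 higher, *RPL6* and *RPS2*, beside 23.7% and 23.1% of all genes. The median log2 difference was -0.05 over the 74 genes.

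Some genes were chosen for a well-known role and not for their change. Those described here were not called in any comparison with all libraries included. The stalk proteins *RPLP0*, *RPLP1* and *RPLP2* gave log2 fold changes of 0.21 (SE 0.31), 0.41 (SE 0.36) and -0.32 (SE 0.34) upon silencing *TRPS1*, none of which passed the threshold, and 0.08, 0.14 and -0.21 without the first control library. *RPL5*, the partner of *RPL11*, was at 262 and 586 TMM CPM in the controls, at 654 and 488 upon silencing *TRPS1*, and at 705 and 469 upon silencing *CHD4*. The groups overlapped for *RPL5*, and its log2 fold changes were 0.45 (SE 0.44) and 0.49 (SE 0.46), or 0.01 and 0.05 without the first control library. *RPS6*, the substrate of the S6 kinases, was at 555 and 486 TMM CPM in the controls, at 725 and 546 upon silencing *TRPS1*, and at 634 and 482 upon silencing *CHD4*. *RPS19*, the gene most often mutated in Diamond-Blackfan anaemia, was at 348 and 709, at 679 and 489, and at 882 and 505 TMM CPM in the same order. *RPSA* was at 1304 and 1937, at 1352 and 1204, and at 1790 and 1220. *RPL13A* was at 1910 and 1010, at 1249 and 801, and at 1522 and 812. *RPS4X* and *RPL22* gave log2 fold changes of -0.18 (SE 0.33) and 0.27 (SE 0.32) upon silencing *TRPS1*, and -0.39 (SE 0.36) and 0.22 (SE 0.35) upon silencing *CHD4*.

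The features of the genes were set beside their changes. The 40 tested genes with the tract at the start site had a median log2 fold change of 0.14 upon silencing *TRPS1* and 0.10 upon silencing *CHD4*, and the 20 tested genes with a promoter entry but no tract there had -0.16 and -0.28. The 29 genes that hold a small nucleolar RNA gene had medians of -0.11 and -0.10, and the other 45 had 0.07 and 0.09. These medians are descriptions, and the part that the first control library takes in them was not tested.

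TRPS1 peaks lay near few of these genes. A deposited peak lay within 5 kb of the listed start site for 4 of the 61 genes (6.56%), against 3.44% of the 13709 genes tabulated in the same way: *RPL27*, *RPL35*, *RPL3* and *RPL12*. All 4 peaks lay upstream. The peak at *RPL27* (hg38 chromosome 17, 42998148 to 42998392) ended 27 bases before the start site, and it overlapped the 5′ end of the gene span in the RefSeq table, which begins at 42998273. The peak at *RPL35* (chromosome 9, 124861999 to 124862398) ended 42 bases before the start site, that at *RPL3* (chromosome 22, 39319762 to 39320153) 139 bases before it, and that at *RPL12* (chromosome 9, 127452204 to 127452418) 798 bases before it. None of the 14 genes without a promoter entry had a peak within 5 kb of either end of the gene.

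**Figure D5:**
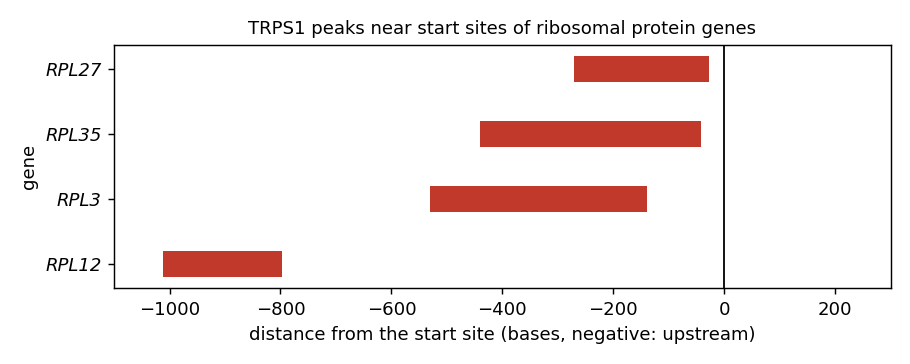
Position of the TRPS1 peaks that lie within 5 kb of the start site of a ribosomal protein gene, as distance in bases from the start site, with upstream to the left. The 4 bars all lie upstream, ending 27 to 798 bases before the start site.

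GATA factors recognise GATA, which reads TATC on the other strand. GATA on either strand occurred in 37 of the 61 promoter windows (60.7%), against 50.5% of all promoters and 37.05% of those of genes tested. The longer AGATAA on either strand occurred in 3 of the 61 (4.92%), against 10.5% and 4.84%. It contains GATA, so the first count includes the second. Of the parts of the 3 nearest peaks inside the promoter windows, 224 bases at *RPL27* and 112 bases at *RPL3* held no GATA, and 209 bases at *RPL35* held 1. That match is shown with TATC in capitals, at chr9:124862132-124862161 on the minus strand of GRCh38.p14.

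RPL35: acgccgacctcgcTATCaggggtgccgtga

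None of the 4 genes with a near peak was called in any comparison with all libraries included. *RPL35* was at 456 and 199 TMM CPM in the controls, at 191 and 172 upon silencing *TRPS1*, and at 229 and 185 upon silencing *CHD4*. *RPL27* was at 126 and 34.8, at 69.8 and 53.9, and at 43.0 and 61.8 in the same order, and *RPL3* at 2066 and 1166, at 1515 and 1156, and at 1313 and 987. The first control library was the highest of the 6 for all 3. *RPL12* was at 816 and 302 TMM CPM in the controls and at 786 and 679 upon silencing *TRPS1*. The log2 fold changes upon silencing *TRPS1* were -0.85 (SE 0.47) for *RPL35*, -0.38 (SE 0.62) for *RPL27*, -0.27 (SE 0.40) for *RPL3* and 0.39 (SE 0.51) for *RPL12*. Without the first control library, *RPL35* stood at -0.09, *RPL27* and *RPL3* turned to 0.88 and 0.24, and *RPL12* stood at 1.32 (SE 0.25). Without the second, *RPL35* stood at -1.35, *RPL27* at -1.04, *RPL3* at -0.65 and *RPL12* at -0.17. With 1 control library left out, *RPL12*, *RPL27* and *RPL35* thus passed the 2-fold limit in 1 of the 2 fits.

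Other gene lists related to ribosomes and translation give the setting. Mitochondrial ribosomal proteins build the separate ribosome of mitochondria. Of the 75 tested genes for them, 0 were called higher and 5 lower (6.67%) upon silencing *TRPS1*, with a median log2 fold change of -0.32. Of all genes tested, 2.7% were called higher and 3.17% lower. Upon silencing *CHD4*, 0 of 74 were higher and 5 lower (6.76%), with a median of -0.41, while 2.6% and 2.85% of all genes were. Without the first control library the 2 mitochondrial medians were -0.21 and -0.26, and fewer of these genes were called lower. The shares of all genes also stand beside the lists that follow. A list of 20 other genes known for a pyrimidine tract held translation factors such as elongation factors, and also noncoding host genes of small nucleolar RNAs. The tract of these genes was not checked here. Of the 20, 1 was called higher and 0 lower upon silencing *TRPS1* (median 0.15). Upon silencing *CHD4*, 0 were called in either direction (median 0.14). Genes for ribosome assembly and ribosomal RNA synthesis had 0 higher and 1 lower of 45 upon silencing *TRPS1* (median -0.09), and 1 higher and 2 lower of 46 upon silencing *CHD4* (median -0.14). The 5 tested paralogs outside the rule were not called in either comparison.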

How the data were processed

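RNA was sequenced from T47D cells in 2 libraries for each of 3 siRNA groups, and samples were grouped by their labels. The authors trimmed and aligned the reads and deposited raw counts per gene, made with HTSeq 0.9.0 according to the submitters' processing notes, without normalisation. Strand handling in counting is not given in the sources used here. The deposited TRPS1 peaks are start and end positions on hg38, called by the authors with MACS2 2.1.1 after alignment with BWA 0.7.12-r1039, with no score in the file and no statement of whether the 2 ChIP libraries were pooled.

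Each comparison was fitted over all genes in edgeR 4.0.16 (R 4.3.3) on its 4 libraries. Genes with over 2 CPM in at least 2 libraries were kept, libraries were scaled by TMM, and quasi-likelihood F-tests used a prior count of 0.125 and Benjamini-Hochberg adjustment over all genes tested. Standard errors were derived as the absolute log2 fold change over the square root of the F statistic. Levels and ratios to a single control used TMM factors of all 6 libraries, with 0.5 CPM added in log ratios. Simulated data with 200 changed genes were used only to check the code, and their spread was set in advance, not matched to these libraries. Shares carry 95% Wilson intervals, which cover counting error only. Start sites, promoters, gene spans and pseudogene symbols came from RefSeq (GRCh38.p14), matched by symbol for 75 genes and 61 promoters. No transcript lengths were used.

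Alternatives were edgeR's likelihood ratio test, DESeq2 1.42.0, RLE or library size scaling, no filter or over 2 CPM in every library, all 6 libraries in 1 fit, a replicate block, pseudogene symbols added, the 10 largest genes left out, and each library left out in turn. Genes named are among the 10 largest fitted changes in each comparison, those with a fixed role or a TRPS1 peak within 5 kb of the start site, and the 3 with the most and the fewest counts. Others (*RPL21*, *RPL9*, *RPL30*, *RPL34*, *RPL17*, *RPL6*, *RPS2* and the genes listed as past 2-fold) were named after their values were seen. A few genes are counted but not reported by name here. The gene lists were chosen with earlier results of these data known.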

Additional observations from a re-analysis of the deposited data

How the results depend on the processing

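Changes of tool, scaling or filter moved the calls of a few genes. Upon silencing *CHD4*, all of them except RLE scaling called *RPL11* higher, against 0 genes in the reported fit. Upon silencing *TRPS1*, *RPS28* was called lower (1 gene) by DESeq2, by the likelihood ratio test and with no filter on low counts. On the higher side, DESeq2 and no filter added *RPS27A*, and library sizes alone added *RPS12*. DESeq2 and the likelihood ratio test each gave 1 gene (*RPL11*) at an adjusted p under 0.05, beside 39 and 34 of all genes. Upon silencing *CHD4*, *RPL11* was called higher (1 gene) with all 6 libraries in 1 fit, with DESeq2, with library sizes alone, with the likelihood ratio test, with no filter and with over 2 CPM in every library, and DESeq2 called 0 genes lower. With no filter, 2 genes were called lower (*RPL28* and *RPS28*). In that fit 1 passed an adjusted p under 0.05 (*RPS28*), beside 111 of all 18973 genes tested. With library sizes alone, 18 genes had both *CHD4* siRNA libraries above both controls, and 2 were over 2-fold above the second control. That scaling also moved the median log2 fold change of all genes tested from -0.02 to 0.11. Apart from the counts at adjusted p, the shares of all genes are not given for the alternative fits above. These counts are therefore no result about the ribosomal protein genes. Between the knockdowns, DESeq2, the likelihood ratio test and no filter each gave 1 gene (*RPL24*) at an adjusted p under 0.05. Of all genes, 456, 570 and 424 passed in the same order. The difference in share turned to -0.0534 percentage points (*TRPS1*) and -0.259 (*CHD4*) on summed TMM CPM. Within 50 kb, 13 of the 61 genes (21.3%) had a TRPS1 peak, beside 11.5% of all genes. Nothing in the labels ties same-numbered libraries to a shared batch, and 2 pairs cannot settle the pairing from the data. Deviations of same-numbered libraries correlated at 0.0810 over all genes between *TRPS1* siRNA and control, 0.0137 between *CHD4* siRNA and control and 0.640 between the knockdowns. Over the ribosomal protein genes the correlations were -0.361, -0.319 and 0.441 in the same order. With a replicate block, 7 genes were called higher upon silencing *TRPS1* (9.46%, beside 5.73% of all genes), with *RPL21* and *RPS27A* added. In that fit 1 gene was called lower (*RPS28*, 1.35% beside 3.71%). Upon silencing *CHD4*, the block gave 1 higher (*RPS27A*, 1.35% beside 4.51%) and 1 lower (*RPS28*, 1.35% beside 2.93%). Between the knockdowns, 18 of 74 (24.3%) passed an adjusted p under 0.05 with the block, beside 3372 of all genes (25.7%).

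Each library was also left out in turn, where the library left alone is assumed to vary like the other group. Upon silencing *TRPS1*, 1 to 14 genes were called higher, 0 to 9 lower and 0 to 33 at an adjusted p under 0.05, with the highest counts without the second control library and 6 at an adjusted p under 0.05 without the first (8.11%, beside 2.27% of all genes). Without the second control library the shares of all genes were 19.2% higher, 14.4% lower and 47.4% at an adjusted p under 0.05, near the 18.9%, 12.2% and 44.6% of the ribosomal protein genes. The median log2 fold change ran from -0.21 to 0.15 and the difference in share from -0.120 to 0.774 percentage points. Upon silencing *CHD4*, the ranges were 0 to 13 higher, 0 to 9 lower, 0 to 25 at an adjusted p under 0.05, -0.22 to 0.13 for the median and -0.262 to 0.459 for the share, where 17.6%, 13.4% and 30.3% of all genes were called without the second control library. Between the knockdowns the difference in share ran from -0.676 to 0.218 percentage points. *RPS28* ran from -3.20 to 0.60 upon silencing *TRPS1* and from -3.30 to 0.50 upon silencing *CHD4*, and *RPL28* from -1.94 to 0.74 upon silencing *CHD4*, in each case positive only without the first control library. The cause of these changes was not tested. With 2 libraries in a group, differences within the spread between the controls were not detectable.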
